A study of Mus musculus with 9 samples.

Results

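Neutrophil and monocyte lineage genes are the 38 genes, of 55291 in the count files, taken by symbol as granule proteins, neutrophil and monocyte surface proteins and pan-myeloid genes. All 38 were found in the files, and all were among the 15066 genes with enough reads to be tested. For 10 of them, fewer than 3 culture or lung libraries held 10 reads, so these entered the test mainly through their bone marrow reads. They are Mpo, Elane, Prtn3, Ctsg, Fcnb, Cebpe, Wfdc21, Padi4, Ly6g and Cxcr2. All libraries hold RNA of a mouse acute myeloid leukaemia (AML) with the Trp53(R172H/delta) genotype, which has the R172H missense allele of the tumour suppressor gene Trp53 beside an allele written as delta in the labels. The cells had been grown in vitro or taken from the bone marrow (BM) or lungs of mice of wild-type (WT) genotype that received them, with 3 libraries per group and 9 in all. All groups share the leukaemia genotype, and the sources used here do not say how the cells were isolated from the tissues, whether mice were pooled, how old they were, or whether libraries of a group came from separate mice or cultures. The p-values therefore measure the spread between these libraries, which may be technical.

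Neutrophils are built in bone marrow in an ordered way, and the order can be read from their granules. Promyelocytes make primary (azurophil) granules with myeloperoxidase and serine proteases, myelocytes make secondary (specific) granules with lactoferrin and cathelicidin, later stages make gelatinase granules, and the mature cell carries receptors for its chemokines and growth factor. Monocytes branch off from the same progenitors, and phagocytes of both kinds share the oxidase and the adaptor chains of their activating receptors. The sets below follow that order.

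Between 27485111 and 38761363 reads were counted in a library, and 1 read was worth 0.0249 to 0.0371 CPM (counts per 1000000 reads of the scaled library). Levels are CPM in each library, and changes are log2 values with their standard error (SE). A gene passed at an adjusted p under 0.05 in edgeR's quasi-likelihood test with Benjamini-Hochberg adjustment over all 15066 genes. The receptor gene Kit, from a list of 9 stem and progenitor markers, was at 506 to 1214 CPM over the libraries. Of those 9 markers 6 were tested, and Cd33, Mecom and Hoxa9 had no read in culture. A list of 10 erythroid markers summed to 1664 to 2700 CPM. All 38 lineage genes together reached 16.4 to 18.8 CPM in culture, 556, 903 and 3134 CPM in bone marrow replicates 1, 2 and 3, and 466, 378 and 286 CPM in lung replicates 1, 2 and 3. Much of the lung level was Serpinb1a and Anxa1: without these genes the sums were 5.29 to 7.60 CPM in culture, 450, 817 and 2934 CPM in bone marrow, and 220, 63.2 and 87.7 CPM in lung. These are counts over a whole sample, in which fewer cells of a type and less RNA per cell cannot be told apart.

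**Figure D1:**
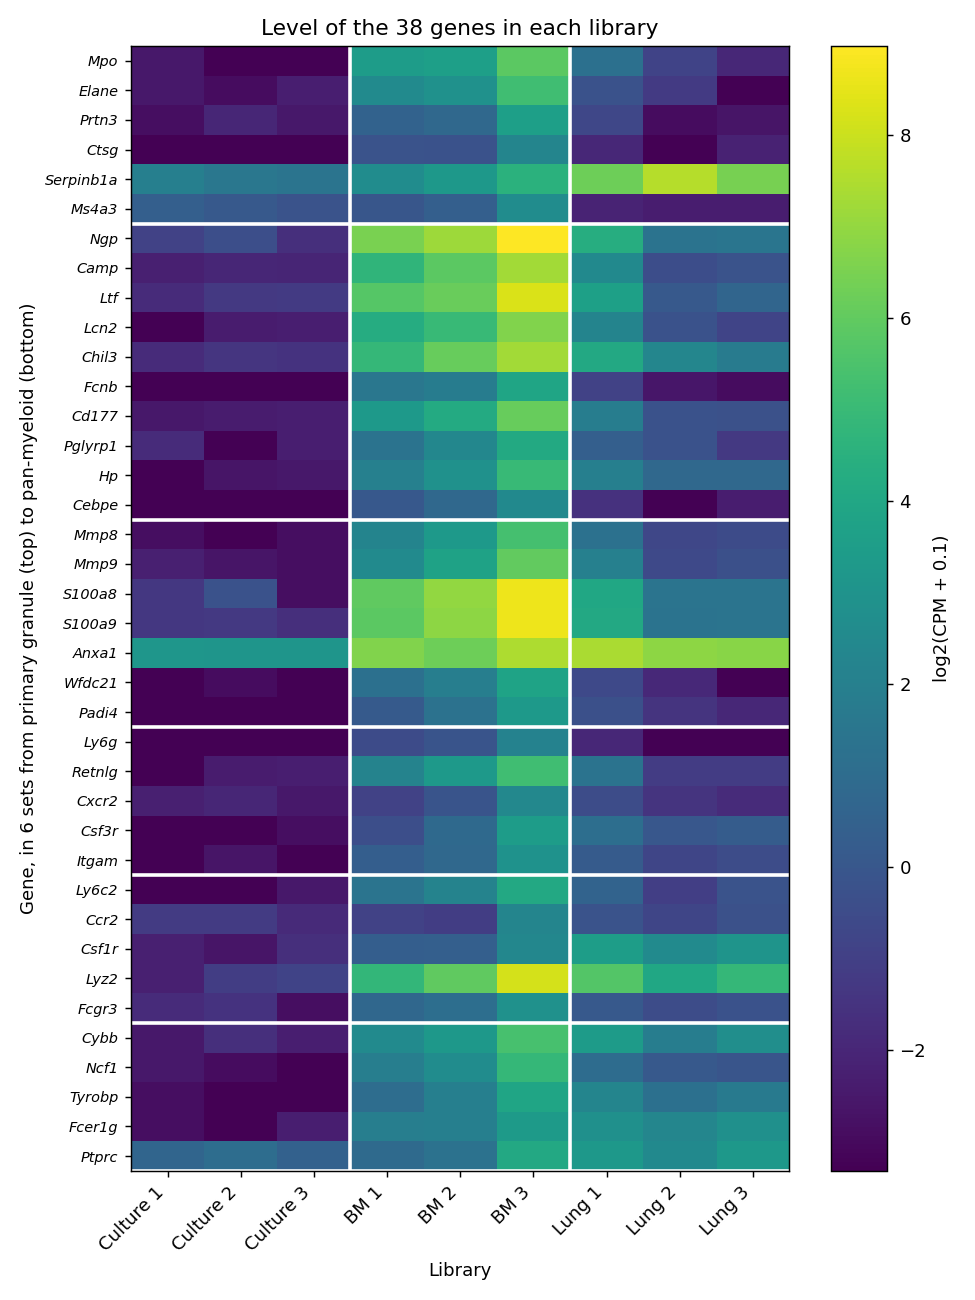
Level of the 38 genes (rows, as log2 of CPM + 0.1) in the 9 libraries (columns), with white lines between the 6 sets and the 3 groups. Culture columns are dark for all rows but a few, bone marrow replicate 3 is the brightest column, and Serpinb1a and Anxa1 stay bright in lung.

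In bone marrow, 36 of the 38 genes rose against culture and none fell, while 30.7% of all tested genes rose and 29.8% fell. All bone marrow libraries were above all culture libraries for the same number, 36, and below for 0, against 34.3% and 32.9% of all tested genes. Of the 28 members with 10 reads in 3 or more culture or lung libraries, 26 rose. The other 10, which entered mainly through bone marrow, all rose. The median log2 change of the 38 was 8.41, and 7.87 when genes without a culture read are set at a floor of 3 reads over the 3 culture libraries, against 0.05 over all tested genes. In lung, 14 of the 38 rose against culture and 1 fell, where 27.9% and 27.0% of all tested genes did. Without bone marrow replicate 3, which enters this contrast through the shared estimate of spread and the filter on low counts, 32 rose, and without culture replicate 1 or 3, 9 rose. Lung against bone marrow had 25 members lower and 2 higher, where 11.1% of all tested genes were lower and 14.2% higher. The median log2 change of the 38 was -3.73 there, against -0.01 over all tested genes. The comparisons with culture share the culture libraries, and those with bone marrow share the bone marrow libraries.

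The count of 25 members lower in lung than in bone marrow changed with the libraries and the filter in the fit. It was 2 without lung replicate 2 (Cebpe and Ms4a3) and 6 without lung replicate 3, and between 17 and 29 without each of the others, with the log2 change of all 25 below 0 in each of these fits. The 2 members higher became 1 without any 1 library but bone marrow replicate 3, and 4 without that one. It was 15 without a filter on low counts, 16 with limma-voom, and 5 of the 13 members that passed a filter of 1 CPM in 6 libraries. Of the 28 members with 10 reads in 3 or more culture or lung libraries, 17 were lower and 2 higher, and of the other 10, which entered mainly through bone marrow, 8 were lower. With the 6 tissue libraries fitted alone, 6 members were lower and none higher. Without bone marrow replicate 3 and lung replicate 1 together, which was chosen after seeing the data, 26 members were lower and 4 higher.

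Bone marrow replicate 3 was the highest of the bone marrow libraries for all 38 genes, which holds for 34.5% of all tested genes. It was at 3 or more times bone marrow replicate 1 for 36 of the 38 genes, against 4.17% of all tested genes. The ratio of these libraries ran from 1.76 for Anxa1 to 16.0 for Csf3r over the members, with a median of 6.78, against a median of 1.0 over all tested genes. Within lung, replicate 1 was the highest library for 36 of the 38 genes (34.1% of all tested genes), the others being Serpinb1a and Fcer1g. The bone marrow and lung libraries of the members did not overlap, with lung lower, for 27 genes (18.1% of all tested genes), namely the 25 that fell with Hp and Padi4, and with lung higher for 2 genes (18.5%). B cell markers were also highest in bone marrow replicate 3. The 8 of them summed to 1.49, 1.55 and 12.2 CPM in bone marrow replicates 1, 2 and 3, and to 1.96 to 4.69 CPM in lung. Some marker lists of other cells shared this and others did not. In the same order, eosinophil markers, also highest in replicate 3, summed to 0.208, 1.36 and 2.81 CPM. Mast cell and basophil markers, lowest in replicate 3, summed to 43.8, 45.5 and 39.2 CPM. The part of these cells in the results was not tested.

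**Figure D2:**
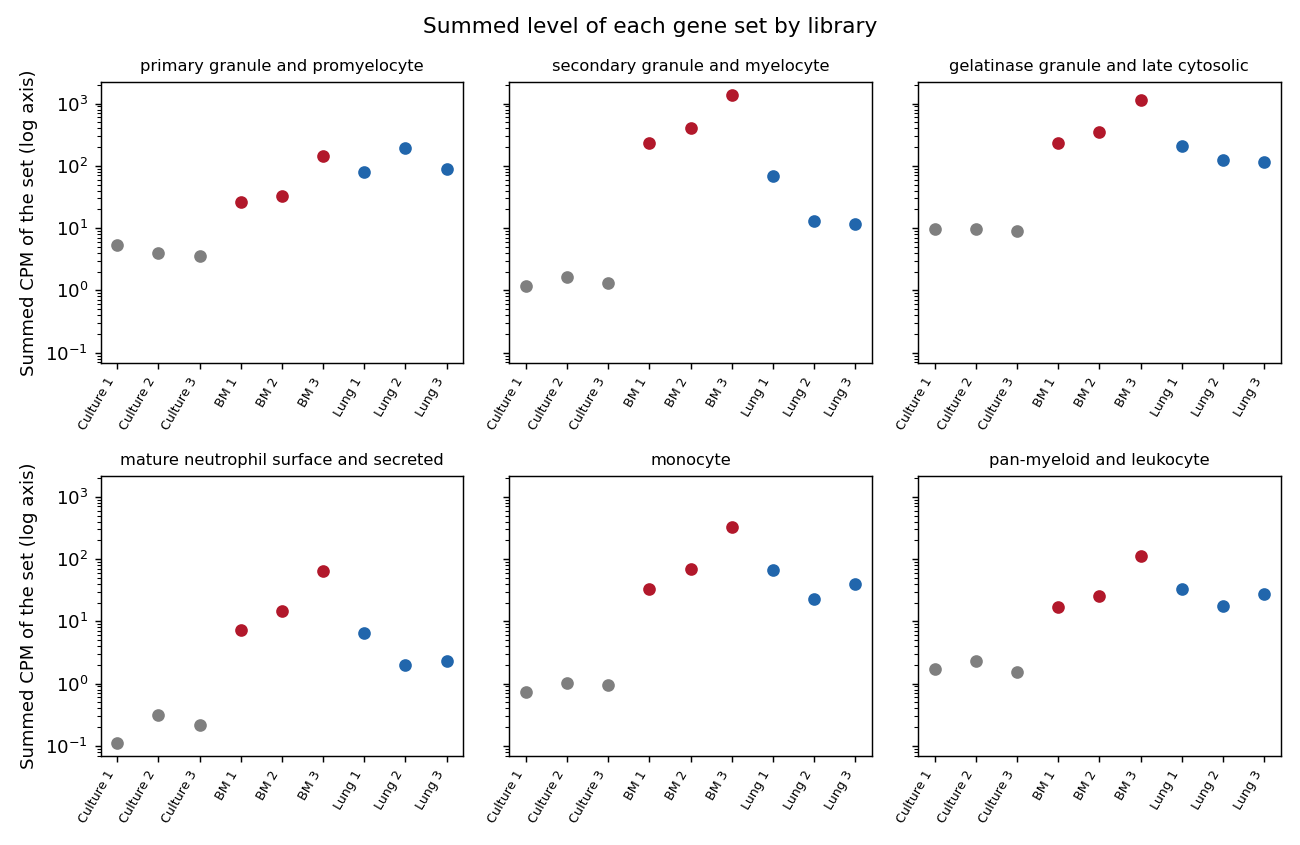
Summed CPM of each of the 6 gene sets (log axis) in each library, with culture in grey, bone marrow in red and lung in blue. In the secondary granule set the bone marrow libraries reach 236 to 1369 CPM and the lung libraries 11.6 to 69.1 CPM, while in the pan-myeloid set the ranges overlap.

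All genes of the primary granule and promyelocyte set were found in bone marrow, and all but Serpinb1a, a protease inhibitor gene, fell in lung. Mpo, which encodes myeloperoxidase, was at 11.0, 12.2 and 58.1 CPM in bone marrow, given here and below in the order of replicates 1, 2 and 3, and reached 2.25, 0.457 and 0.158 CPM in lung, with 2 reads in all 3 culture libraries. Its reads in bone marrow were 1280 times those in culture after scaling, with an exact binomial 95% interval of 354 to 10576 for counting error only. Elane, the gene of neutrophil elastase, was at 5.74, 7.34 and 37.4 CPM in bone marrow and at 0.760, 0.326 and 0 CPM in lung. All bone marrow libraries were above all lung libraries for both genes, and the lowest bone marrow library was several times the highest lung one. The log2 change was -4.76 ± 1.06 for Mpo (adjusted p = 0.020) and -5.46 ± 1.11 for Elane (adjusted p = 0.013). Prtn3, encoding proteinase 3, changed by -4.50 ± 1.15 (adjusted p = 0.025), from 5.06 ± 6.13 to 0.207 ± 0.275 CPM (mean ± SD, n = 3). Ctsg, encoding cathepsin G, had 243 reads in bone marrow, 10 in lung and none in culture. Against the floor of 3 reads it was at least 66.9-fold higher in bone marrow than in culture, with the 3 bone marrow libraries pooled. Ctsg was at 0.773, 0.743 and 4.80 CPM in them. Between the tissues, the calls of these genes were lost without lung replicate 2, that of Mpo also without culture replicate 1, that of Prtn3 without lung replicate 3, and that of Ctsg without any 1 lung library. Mpo, Elane, Prtn3 and Ctsg are among the members that entered the test mainly through their bone marrow reads.

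Ms4a3 is a membrane protein gene known from granulocyte and monocyte progenitors, and in these libraries it was already present in culture. It was at 1.22, 0.985 and 0.781 CPM in culture, at 0.863, 1.24 and 6.19 CPM in bone marrow and at 0.131, 0.0979 and 0.0949 CPM in lung. Culture and bone marrow overlapped, and lung lay below both. It fell in lung against bone marrow (log2 change -4.63 ± 0.82, adjusted p = 0.0032) and against culture (-3.15 ± 0.85, adjusted p = 0.0095), where it was the 1 member that fell. Both calls were kept without any 1 of the 9 libraries, though lung held only 11 reads of the gene in all. Bone marrow against culture did not pass (log2 change 1.48 ± 0.64, adjusted p = 0.065), and passed without bone marrow replicate 1 or 2 (log2 change 1.90 and 1.83).

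All 10 secondary granule and myelocyte genes rose in bone marrow against culture, and 9 of 10 fell in lung against bone marrow (median log2 change of the set -4.58). Ngp, encoding neutrophilic granule protein, was at 90.0, 144 and 504 CPM in bone marrow and at 19.9, 2.45 and 2.63 CPM in lung. Camp, encoding cathelicidin, was at 26.0, 58.8 and 155 CPM in bone marrow and at 5.58, 0.652 and 0.791 CPM in lung. Ltf, encoding the iron-binding protein lactoferrin, was at 52.6, 72.1 and 315 CPM in bone marrow and at 12.7, 0.979 and 1.52 CPM in lung. In each of the 3 genes bone marrow replicate 3 and lung replicate 1 stood above the other libraries of their tissue, and the tissues did not overlap. The log2 changes were -4.85 ± 1.10 for Ngp (adjusted p = 0.024), -5.03 ± 1.02 for Camp (adjusted p = 0.016) and -4.81 ± 1.18 for Ltf (adjusted p = 0.030). These calls were lost without lung replicate 2, that of Ngp also without lung replicate 3, and that of Ltf without any 1 culture library, bone marrow replicate 3 or lung replicate 3.

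These 3 genes lie on chromosome 9 within 1.20 Mb (GRCm38, GENCODE M21): Camp from 109847379 to 109849617, Ngp from 110419747 to 110423012 and Ltf from 111019271 to 111042767. Their promoters are shown because the genes moved together, with Anxa1, which did not move with them, for comparison. Each window holds 250 bases before and 50 after the RefSeq start (GRCm38.p6), and capitals mark TTNNGNAA or its reverse complement TTNCNNAA, the core letters of sites bound by C/EBP factors, the family of Cebpe. A match of letters is a description and not a site of binding.
Ngp promoter, chr9:110419558-110419857, plus strand: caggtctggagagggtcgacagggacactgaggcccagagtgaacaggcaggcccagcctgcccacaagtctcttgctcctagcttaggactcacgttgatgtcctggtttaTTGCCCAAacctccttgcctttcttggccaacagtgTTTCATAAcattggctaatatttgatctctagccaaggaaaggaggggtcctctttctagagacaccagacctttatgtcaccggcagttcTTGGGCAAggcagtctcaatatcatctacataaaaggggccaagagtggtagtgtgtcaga
Camp promoter, chr9:109849407-109849706, minus strand: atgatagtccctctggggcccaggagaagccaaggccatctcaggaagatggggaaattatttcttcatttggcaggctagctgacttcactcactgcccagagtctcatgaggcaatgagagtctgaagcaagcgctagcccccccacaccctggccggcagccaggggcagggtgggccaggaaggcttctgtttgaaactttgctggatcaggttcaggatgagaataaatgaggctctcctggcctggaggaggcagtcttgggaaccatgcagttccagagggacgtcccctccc
Ltf promoter, chr9:111019042-111019341, plus strand: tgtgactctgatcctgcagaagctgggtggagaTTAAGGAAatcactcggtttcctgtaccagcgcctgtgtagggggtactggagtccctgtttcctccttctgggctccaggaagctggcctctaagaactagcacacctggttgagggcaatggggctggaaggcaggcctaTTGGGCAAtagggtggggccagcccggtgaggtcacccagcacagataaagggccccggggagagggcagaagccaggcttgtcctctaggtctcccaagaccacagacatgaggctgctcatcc
Anxa1 promoter, chr19:20390622-20390921, minus strand: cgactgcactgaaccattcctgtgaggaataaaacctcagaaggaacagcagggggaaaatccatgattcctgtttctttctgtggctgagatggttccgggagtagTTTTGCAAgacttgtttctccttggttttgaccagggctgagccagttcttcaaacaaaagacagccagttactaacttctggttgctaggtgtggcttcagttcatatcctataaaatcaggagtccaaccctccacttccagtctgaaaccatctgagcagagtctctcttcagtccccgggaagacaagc
The motif occurs 3 times in the Ngp window, 2 times in that of Ltf, 1 time in that of Anxa1 and 0 times in that of Camp. It was found in 19 of the 31 members with a window (61.3%), 6 of 8 in the secondary granule set, and in 40.7% of 27025 genes with a window of the same length.

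In the other secondary granule genes too, bone marrow replicate 3 and lung replicate 1 were the highest libraries of their tissue. Lcn2, encoding lipocalin 2, which captures bacterial iron carriers, was at 19.2, 30.8 and 100 CPM in bone marrow and at 4.56, 0.750 and 0.474 CPM in lung, which is a log2 change of -4.64 ± 1.01 (adjusted p = 0.020, lost without lung replicate 2). Chil3, a chitinase-like protein gene that alveolar macrophages also express, was at 16.9, 4.93 and 3.32 CPM against 28.7, 69.1 and 157 CPM in bone marrow. It fell by 3.32 on the log2 scale (SE 0.84, adjusted p = 0.032), a call kept only without bone marrow replicate 1 or lung replicate 1 when 1 library is left out. In lung it rose against culture (log2 change 5.13 ± 1.37, adjusted p = 0.019), which was lost without any 1 culture library. Fcnb, which encodes the lectin ficolin B, and Cebpe, the transcription factor required for secondary granules, had no read in culture. Against the floor of 3 reads they were at least 223-fold and at least 86.1-fold higher in bone marrow, with its 3 libraries pooled. Fcnb was at 2.80, 3.44 and 15.1 CPM there. Cebpe was at 0.952, 1.70 and 5.62 CPM in bone marrow and at 0.236, 0 and 0.0949 CPM in lung, with 12 lung reads in all (log2 change -4.53 ± 0.97, adjusted p = 0.014, lost without lung replicate 3). Fcnb, with 20 lung reads in all, fell by 5.18 on the log2 scale (SE 1.10, adjusted p = 0.020, lost without lung replicate 2 or 3). Cd177, a neutrophil surface glycoprotein gene, was at 9.79, 18.1 and 69.5 CPM in bone marrow and at 3.67, 0.750 and 0.727 CPM in lung, and fell (log2 change -4.20 ± 0.98, adjusted p = 0.024, lost without lung replicate 2 or 3). Pglyrp1, encoding a protein that binds bacterial peptidoglycan, fell from 2.47, 5.02 and 17.7 CPM to 1.23, 0.750 and 0.316 CPM (log2 change -3.43 ± 0.84, adjusted p = 0.021, lost without any 1 lung library). Hp, encoding haptoglobin, was the 1 member of the set that did not pass in lung against bone marrow (log2 change -2.54 ± 0.79, adjusted p = 0.053). It passed without bone marrow replicate 1 or 3 (log2 change -2.98 and -1.24).

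Genes of the gelatinase stage and of the late cytosol fell in lung in 5 of 7 cases. S100a8 and S100a9 encode the subunits of calprotectin, the most abundant protein of the neutrophil cytosol. S100a8 was at 62.4, 125 and 411 CPM in bone marrow and at 16.1, 2.54 and 2.53 CPM in lung, and S100a9 at 59.6, 118 and 405 CPM and at 16.9, 2.51 and 2.59 CPM. The levels of the pair were close in each tissue library, with 0.955 to 1.06 reads of S100a8 per read of S100a9. They lie 22.6 kb apart on chromosome 3. Both fell (log2 change -4.78 ± 1.09 and -4.69 ± 1.08, adjusted p = 0.024 and 0.025), calls lost without lung replicate 2 or 3. Mmp8 and Mmp9, the genes of neutrophil collagenase and gelatinase B, changed by -3.97 ± 0.99 (adjusted p = 0.028) and -3.95 ± 1.15. Mmp8 lost its call without culture replicate 1 or 2 or lung replicate 2 or 3. Mmp9 lies at the threshold (adjusted p = 0.050) and lost its call without 8 of the 9 libraries, the exception being bone marrow replicate 1. Padi4, the enzyme that citrullinates histones, had no read in culture and was at 1.01, 2.35 and 9.97 CPM in bone marrow. It did not pass in lung against bone marrow (log2 change -3.52 ± 1.04, adjusted p = 0.055), but did without bone marrow replicate 1 or 3 (log2 change -3.98 and -2.12). Wfdc21, encoding a small secreted protein with a whey acidic domain, fell from 2.20, 3.72 and 14.0 CPM to 0.550, 0.163 and 0 CPM (log2 change -4.72 ± 1.01, adjusted p = 0.012, lost without lung replicate 2).

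Of the 5 mature neutrophil genes, 3 fell in lung against bone marrow. Retnlg, encoding resistin-like gamma, was at 4.43, 9.82 and 36.4 CPM in bone marrow and at 2.46, 0.359 and 0.348 CPM in lung, which is a log2 change of -3.94 ± 1.06 (adjusted p = 0.036). That call was lost without any 1 culture library, bone marrow replicate 2 or lung replicate 2 or 3. Ly6g, the gene of the antigen by which mouse neutrophils are commonly sorted, had 218 reads in bone marrow and 0 in culture. Lung held 6, all of them in replicate 1, and the change passed (log2 change -4.94 ± 1.25, adjusted p = 0.028), but not without any 1 lung library. Ly6g is 1 of a family of similar genes, so the assignment of its reads is uncertain. Csf3r, the receptor of the growth factor G-CSF, and Cxcr2, a chemokine receptor, had overlapping tissue libraries. Csf3r was at 0.684, 1.77 and 11.0 CPM in bone marrow and at 2.07, 0.913 and 1.11 CPM in lung, which is a log2 change of -1.71 ± 0.90 (adjusted p = 0.20), and passed without bone marrow replicate 1 (log2 change -2.21). Cxcr2 had a log2 change of -2.55 ± 0.88 (adjusted p = 0.061) and passed without bone marrow replicate 1 or 2 (-3.02 and -2.94). Itgam, the CD11b integrin chain, fell by 2.23 on the log2 scale (SE 0.70, adjusted p = 0.043), a call kept only without bone marrow replicate 1 or 2 when 1 library is left out.

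**Figure D3:**
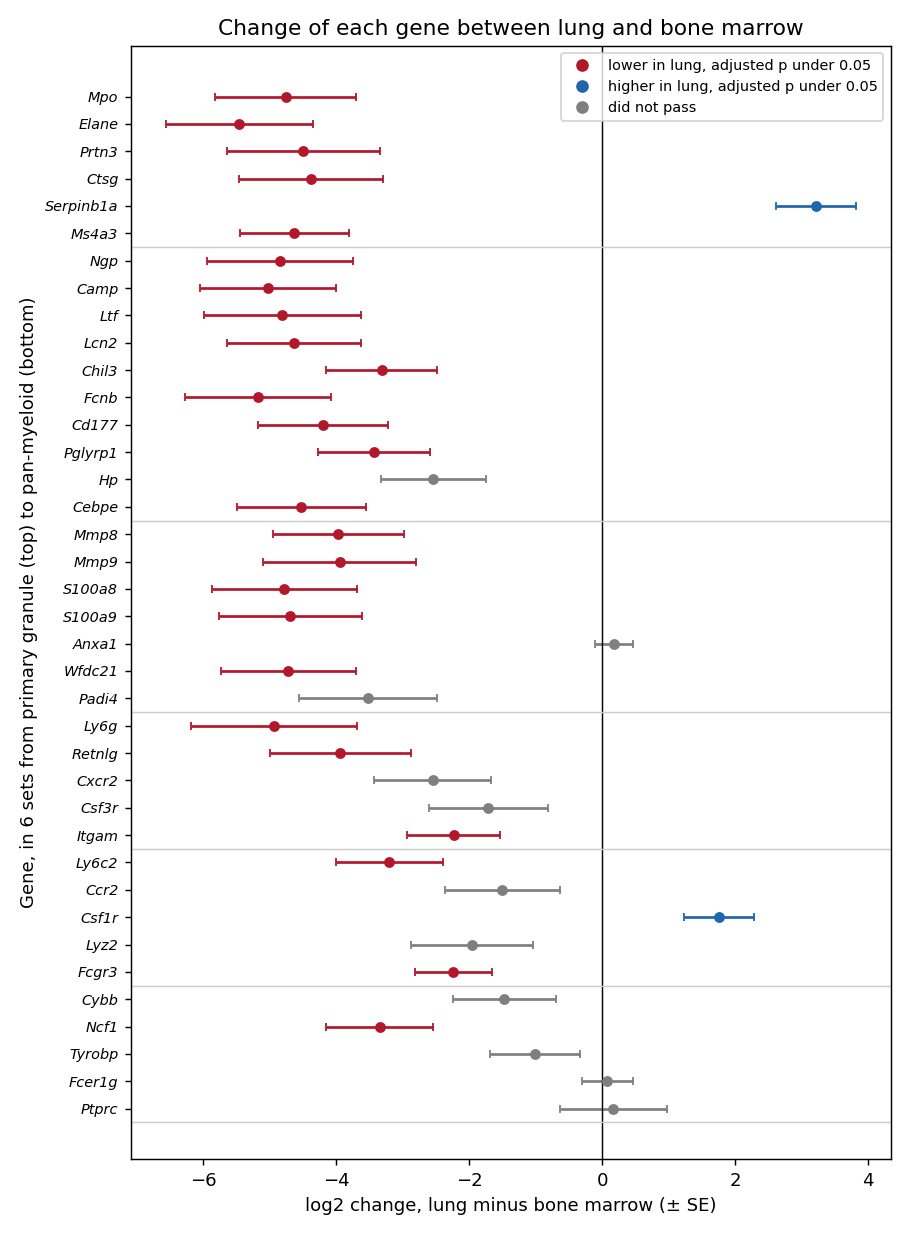
Log2 change between lung and bone marrow (horizontal axis, points with SE bars) for each gene, in the order of the 6 sets. Ngp, Camp and Ltf lie at -4.85, -5.03 and -4.81, Lyz2 and Cybb at -1.96 and -1.47, and Serpinb1a and Csf1r at 3.22 and 1.76.

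Monocyte genes were split. Ly6c2, the antigen of classical monocytes, was at 2.56, 4.37 and 17.3 CPM in bone marrow and at 1.41, 0.391 and 0.791 CPM in lung and fell (log2 change -3.20 ± 0.80, adjusted p = 0.023). It has a close paralog, Ly6c1, so its reads are uncertain. Fcgr3, an activating Fc receptor gene whose reads are uncertain for the same reason, fell by 2.24 on the log2 scale (SE 0.58, adjusted p = 0.017). Both calls were lost without any 1 of the lung libraries. Lyz2, encoding lysozyme of monocytes, macrophages and neutrophils, was at 27.8, 62.0 and 289 CPM in bone marrow and at 52.2, 15.8 and 29.1 CPM in lung. The tissues overlapped and the change did not pass (log2 change -1.96 ± 0.92, adjusted p = 0.17). Ccr2, the receptor that guides monocytes out of bone marrow, did not pass either (log2 change -1.50 ± 0.87, adjusted p = 0.24).

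Csf1r, the receptor of the macrophage growth factor, ran the other way. It was at 1.16, 1.24 and 5.02 CPM in bone marrow and at 11.3, 5.90 and 8.26 CPM in lung, so that every lung library was above every bone marrow library. It rose in lung against bone marrow (log2 change 1.76 ± 0.53, adjusted p = 0.038) and in both tissues against culture (log2 change 4.27 ± 0.79 and 6.03 ± 0.77). The call between the tissues was lost when any 1 library other than bone marrow replicate 3 was left out (adjusted p up to 0.12), and was firmer without that one (adjusted p = 4.9e-05). Of a further list of 21 monocyte genes, 19 were tested, of which 6 rose and 1 fell in lung against bone marrow. The shares of all tested genes were 14.2% and 11.1%. Klf2, a transcription factor gene of quiescent leukocytes and of endothelium, went from 0.565, 1.33 and 2.78 CPM to 22.6, 19.4 and 12.9 CPM (log2 change 3.52 ± 0.47, adjusted p = 0.00099). Ace, the gene of angiotensin-converting enzyme, abundant in lung endothelium and also found in patrolling monocytes, went from 0, 0.0929 and 0.597 CPM to 15.7, 6.30 and 5.16 CPM (log2 change 5.19 ± 0.85, adjusted p = 0.0038). The other 4 that rose were Adgre4, Treml4, Fcgr4 and Clec4a3, named after their values were seen, and the 1 that fell was Ifi204, an interferon-inducible gene (log2 change -0.89 ± 0.27, adjusted p = 0.029, lost without bone marrow replicate 2 or 3 or any 1 lung library). Endothelium markers rose in lung too, 6 of 7 tested, and their part in these results was not tested. Their summed level was mostly that of Egfl7, at 109 to 139 CPM over the culture and bone marrow libraries. Without Egfl7 it lay between 2.32 and 3.03 CPM in bone marrow, and between 9.62 and 35.4 CPM in lung.

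Of the 5 pan-myeloid genes, 1 fell in lung and none rose. Ncf1, a cytosolic subunit of the phagocyte oxidase, was at 3.72, 6.22 and 28.7 CPM in bone marrow and at 1.91, 0.979 and 0.854 CPM in lung, and fell (log2 change -3.35 ± 0.81, adjusted p = 0.022, lost without any 1 lung library). Cybb, the membrane subunit of the same enzyme, was at 5.77, 9.29 and 42.6 CPM and at 10.5, 3.65 and 6.61 CPM. It overlapped between the tissues and did not pass (log2 change -1.47 ± 0.78, adjusted p = 0.22). Both rose in each tissue against culture, Ncf1 in lung not without any 1 culture library or lung replicate 1 or 2. Of 6 further oxidase genes none passed between the tissues; the most abundant, Rac1, was at 397 to 501 CPM in bone marrow and 432 to 462 CPM in lung, which is a log2 change of 0.03 ± 0.09 (adjusted p = 0.86).

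Tyrobp and Fcer1g encode the adaptor chains DAP12 and FcR gamma, through which activating receptors signal. Tyrobp was at 1.99, 3.90 and 14.7 CPM in bone marrow and at 4.82, 2.25 and 3.16 CPM in lung, which is a log2 change of -1.01 ± 0.67 (adjusted p = 0.31). Fcer1g was at 3.75, 3.87 and 10.4 CPM and at 7.02, 4.93 and 7.24 CPM (log2 change 0.08 ± 0.39, adjusted p = 0.89). The tissues overlapped for both genes, while culture held 1 and 4 reads of them in all. Ptprc, the gene of CD45, which nearly all leukocytes carry, was at 1.31 to 2.03 CPM in culture. It was at 1.78, 2.42 and 17.2 CPM in bone marrow, where replicates 1 and 2 lay near culture, and at 9.35, 5.71 and 9.27 CPM in lung. It passed in no comparison (adjusted p = 0.075 for bone marrow and 0.064 for lung, each set against culture, and 0.90 between the tissues). Without bone marrow replicate 3 it rose in lung against bone marrow (log2 change 1.93) and against culture (2.30). Without bone marrow replicate 1 or 2 it rose in both tissues against culture (2.59 and 2.55 in bone marrow, 2.31 each in lung).

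Of 15 pan-leukocyte genes, all tested, 3 rose and none fell in lung against bone marrow. Over all tested genes, 14.2% rose and 11.1% fell. The 3 were Laptm5, a lysosomal membrane protein gene, Lcp1 and Dock2, the last named after its values were seen. Lcp1, which encodes the actin-bundling L-plastin, was at 409 to 433 CPM in culture, 88.0 to 132 CPM in bone marrow and 158 to 203 CPM in lung (log2 change 0.66 ± 0.14 between the tissues, adjusted p = 0.0048). Laptm5 averaged 20.2 ± 0.739 CPM in culture (SD, n = 3), 41.2 ± 9.56 in bone marrow and 89.5 ± 13.2 in lung. Its log2 change between the tissues was 1.12 ± 0.16 (adjusted p = 0.00049).

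Ratios between genes within a library do not depend on its scaling. Per read of Ngp there were 0.267 to 0.408 reads of Camp and 0.400 to 0.636 reads of Ltf over the 6 tissue libraries, with bone marrow and lung overlapping. Lcn2, at 0.181 to 0.307 reads per read of Ngp, overlapped too. Lyz2 had 0.308, 0.430 and 0.573 reads per read of Ngp in bone marrow and 2.62, 6.44 and 11.1 in lung. Cybb had 0.0641, 0.0644 and 0.0844 in bone marrow and 0.527, 1.49 and 2.52 in lung. Retnlg, a gene of mature neutrophils, lay between 0.0493 and 0.0723 in bone marrow and between 0.124 and 0.147 in lung. All lung libraries were thus above all bone marrow libraries in Chil3, lysozyme, oxidase and Retnlg reads per read of Ngp. Cybb per read of Lyz2 overlapped between the tissues (0.147 to 0.208 in bone marrow, 0.201 to 0.232 in lung), and Csf1r per read of Lyz2 did not (0.0174 to 0.0418 and 0.216 to 0.375). The pairs were chosen after the values were seen.

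**Figure D4:**
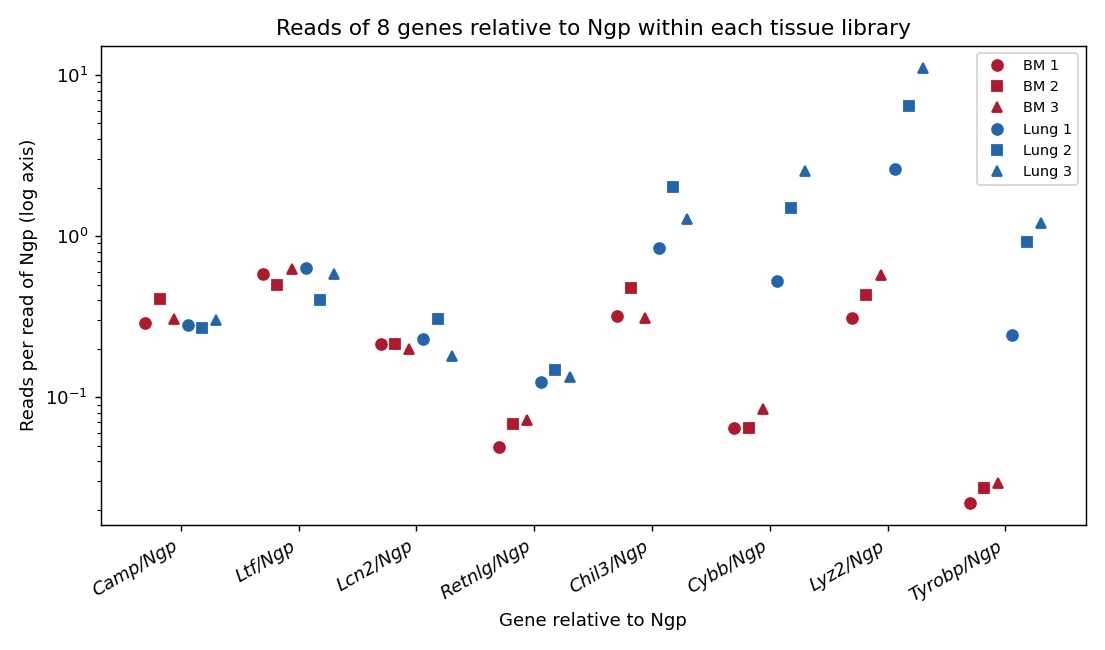
Reads of 8 genes per read of Ngp (log axis) in each of the 6 tissue libraries, with bone marrow in red and lung in blue and a marker shape for each replicate. Camp, Ltf and Lcn2 overlap between the tissues. Chil3 does not, and Lyz2 lies between 0.308 and 0.573 in bone marrow and at 2.62 or more in lung.

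Serpinb1a had the highest log2 change of the 38 between the tissues. It encodes an inhibitor that protects the cell from elastase, cathepsin G and proteinase 3, and it lies on chromosome 13 from 32842092 to 32851185 beside similar copies, so its reads are uncertain in part. Its level was 3.93, 2.83 and 2.59 CPM in culture, 6.13, 9.17 and 23.0 CPM in bone marrow and 75.9, 195 and 88.3 CPM in lung. No library of 1 group overlapped another group, and lung replicate 1, the highest lung library for most members, was the lowest for this gene. It rose in lung against bone marrow (log2 change 3.22 ± 0.60, adjusted p = 0.011), a call kept without any 1 library but lost when only the 6 tissue libraries were fitted. Against culture it rose in lung (log2 change 5.27 ± 0.70, adjusted p = 0.00069) and in bone marrow (log2 change 2.05 ± 0.67, adjusted p = 0.034), the latter call being lost without any 1 culture library and without bone marrow replicate 3 (adjusted p up to 0.10). Per read of Ngp there were 0.0457 to 0.0681 reads of Serpinb1a in bone marrow and 3.81 to 79.8 in lung.

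Its target proteases lie elsewhere, Elane and Prtn3 3.07 kb apart on chromosome 10. Their promoter windows are shown because the pair moved against their inhibitor, with capitals for GAGGAA or its reverse complement TTCCTC, the core letters of sites of the myeloid factor PU.1.
Elane promoter, chr10:79886062-79886361, plus strand: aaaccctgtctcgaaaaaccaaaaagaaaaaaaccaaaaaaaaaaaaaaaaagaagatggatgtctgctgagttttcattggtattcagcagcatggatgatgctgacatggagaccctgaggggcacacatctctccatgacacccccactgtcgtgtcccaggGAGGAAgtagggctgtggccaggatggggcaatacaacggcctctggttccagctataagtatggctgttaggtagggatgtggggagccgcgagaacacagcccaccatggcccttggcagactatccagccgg
Prtn3 promoter, chr10:79879417-79879716, plus strand: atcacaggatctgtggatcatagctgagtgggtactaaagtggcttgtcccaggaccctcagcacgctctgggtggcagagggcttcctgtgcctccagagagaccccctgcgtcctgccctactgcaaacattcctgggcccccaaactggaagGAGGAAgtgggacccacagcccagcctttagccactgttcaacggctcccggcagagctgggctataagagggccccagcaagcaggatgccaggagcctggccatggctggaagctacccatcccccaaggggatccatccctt
The letters occur 1 time in each window. They were found in 20 of the 31 members with a window (64.5%) and in 28.3% of 27025 genes. Neither window holds the C/EBP letters given above. Serpinb1a had no window, so the inhibitor could not be set beside the pair. Here too, a match of letters is a description and not a site of binding.

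Anxa1, encoding the calcium-dependent lipid-binding protein annexin A1, was high in both tissues. It was at 8.79, 8.40 and 8.52 CPM in culture, 99.9, 76.6 and 176 CPM in bone marrow and 170, 120 and 110 CPM in lung. It rose in both tissues against culture (log2 change 3.78 ± 0.34 and 3.96 ± 0.34, each adjusted p = 2.5e-05), and these calls were kept without any 1 library. The tissues overlapped (log2 change 0.18 ± 0.29, adjusted p = 0.69), and without bone marrow replicate 3 it rose in lung (log2 change 0.58).

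**Figure D5:**
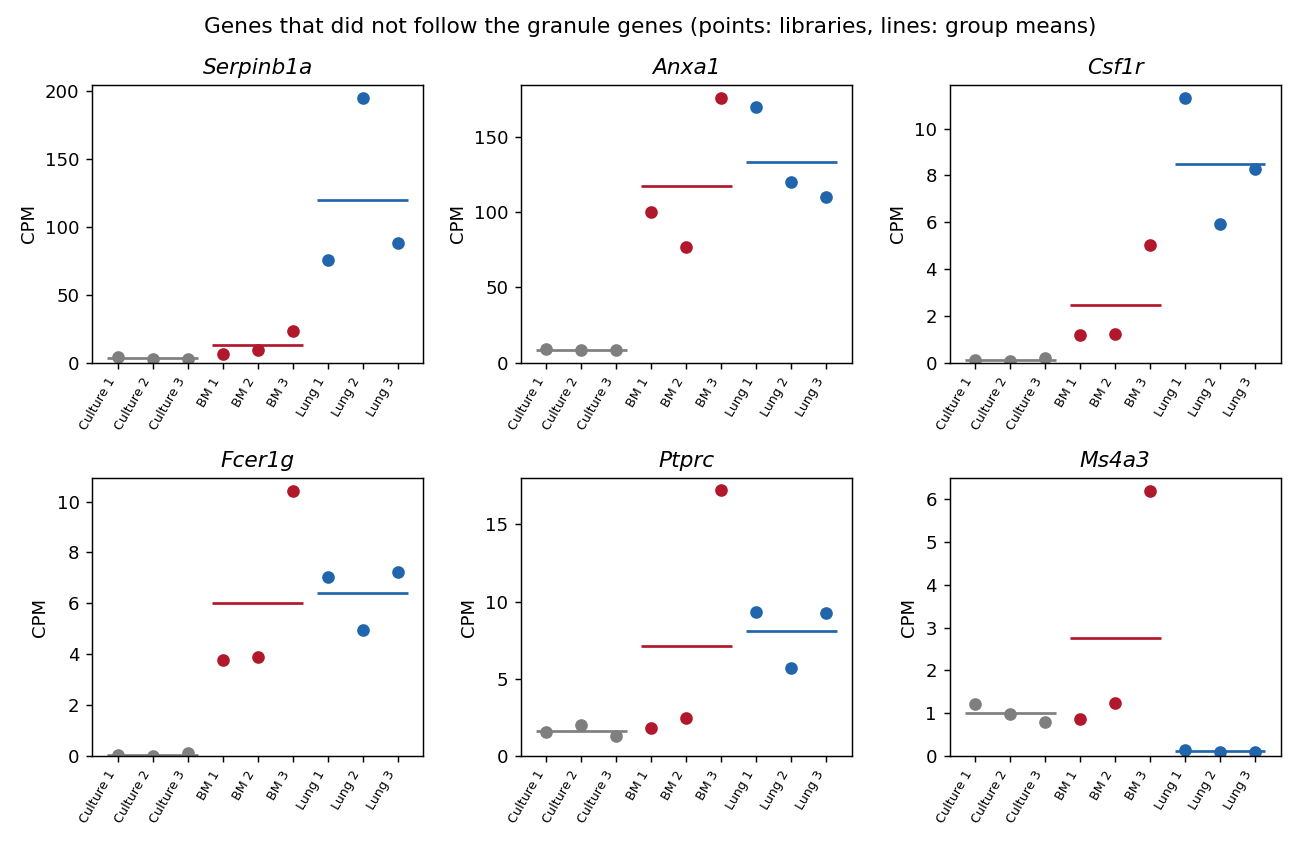
CPM of 6 genes in each library (points) with group means (lines), culture in grey, bone marrow in red and lung in blue. Serpinb1a reaches 75.9 to 195 CPM in lung, Csf1r is higher in lung, the tissues overlap for Anxa1, Fcer1g and Ptprc, and Ms4a3 is lowest in lung.

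Levels of different genes can be set side by side only per length, here as mean CPM per kb of exon. In bone marrow the highest were S100a9 at 372, S100a8 at 287, Ngp at 201, Camp at 105 and Lyz2 at 95.9 CPM per kb. In lung the order was led by Serpinb1a at 52.0, Anxa1 at 45.7 and Lyz2 at 24.6 CPM per kb, ahead of S100a9 at 14.0 and S100a8 at 10.2. In culture Anxa1 (2.94) and Serpinb1a (1.35) were the only members above 1 CPM per kb.

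Of the 14 members that rose in lung against culture, 4 were of the monocyte and 4 of the pan-myeloid set, both of 5 genes. The mature neutrophil set of 5 genes held 2, and Serpinb1a and Anxa1 rose too. In the secondary granule set of 10 genes, 2 rose. A difference between the sets was not tested, and the last count moved with the fit: it was 10 with DESeq2 and 8 without bone marrow replicate 3. For 9 of those 10 genes, all lung libraries were above all culture libraries. Those that still rose without any 1 of the 9 libraries were Csf1r, Fcer1g, Tyrobp, Cybb, Lyz2, Hp, Itgam, Serpinb1a and Anxa1. Fcer1g had a log2 change of 7.01 ± 0.69 (adjusted p = 9.6e-06). All lung libraries were above all culture libraries for 31 of the 38 genes (34.0% of all tested genes) and below for 1, Ms4a3 (32.9%). Those above include Ngp, which did not pass (log2 change 4.22 ± 1.66, adjusted p = 0.072).

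Of 12 transcription factors of these lineages, 10 were tested, of which 3 rose and none fell in lung against bone marrow. Among all tested genes 14.2% rose and 11.1% fell, which are the shares for each list of this paragraph. Cebpb, a C/EBP factor of emergency granulopoiesis and of macrophages, was at 21.1 to 25.7 CPM in culture, 1.21 to 4.65 CPM in bone marrow and 6.75 to 8.91 CPM in lung (log2 change 1.71 ± 0.45 between the tissues, adjusted p = 0.027, lost without bone marrow replicate 2 or any 1 lung library). Zbtb7a, a repressor gene active in many blood lineages, rose by 0.47 on the log2 scale (SE 0.13, adjusted p = 0.016, a call lost on leaving out lung replicate 1 or 2 or else bone marrow replicate 2 or 3), and the other was Klf4, named after its values were seen. Of 22 further neutrophil genes, 21 were in the files and 16 were tested, of which 7 fell and 2 rose in lung. Ltb4r1, the leukotriene B4 receptor of neutrophils, fell from 1.31, 2.54 and 6.91 CPM to 0.445, 0.522 and 0.569 CPM (log2 change -2.81 ± 0.59, adjusted p = 0.0063). Clec4d, a C-type lectin receptor gene, fell by 0.59 on the log2 scale (SE 0.15, adjusted p = 0.013, lost without lung replicate 2) and was at 37.2 to 45.4 CPM in culture, above both tissues. The inflammatory cytokine gene Il1b (log2 change 1.12 ± 0.20) and the cystatin gene Cst7 (0.61 ± 0.12) rose. Of 11 genes of ITAM receptor signalling, 9 were tested and none passed between the tissues. The most abundant, Vav1, was at 187 to 213 CPM in bone marrow and 184 to 205 CPM in lung, which is a log2 change of -0.08 ± 0.08 (adjusted p = 0.48).

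Markers of other cells in the same libraries differed by tissue. For the counts of calls below, 14.2% of all tested genes rose and 11.1% fell in lung against bone marrow. Resident macrophage markers fell in lung in 5 of 9 tested, with summed levels of 244 to 271 CPM in bone marrow and 146 to 209 CPM in lung, most of it Slc40a1, which was also at 222 to 246 CPM in culture. Without Slc40a1, 4 of 8 tested fell. The sums were then 12.4 to 12.5 CPM in culture, 20.8 to 23.8 CPM in bone marrow and 9.52 to 14.4 CPM in lung. Alveolar macrophage markers, a list that holds Chil3, had 1 gene up and 1 down of 4 tested, and Marco, Krt79 and Car4 had no read in bone marrow. The 1 down was Chil3 itself, already counted among the members. Mast cell and basophil markers had 3 up and 1 down of 4 tested (summed level 39.2 to 45.5 and 68.7 to 129 CPM), led by Cpa3, and eosinophil markers stayed at 0.208 to 2.81 CPM in the tissues, with Epx and Ear6 without a read in lung. T and NK cell markers summed to 0.208 to 0.472 CPM in bone marrow and 1.55 to 2.63 CPM in lung, and lung epithelium markers to 0.547 to 0.712 and 14.5 to 81.9 CPM. Summed megakaryocyte markers overlapped between the tissues (19.9 to 27.8 and 27.1 to 39.2 CPM). Most of the summed fibroblast markers was Dcn, and without it they lay between 1.42 and 4.21 CPM in bone marrow and between 2.84 and 8.80 CPM in lung. Zbtb46 and Bst2 held most of the summed dendritic cell markers, which also reached 54.6 to 55.7 CPM in culture, and without both genes the sums overlapped (0.403 to 2.11 and 0.816 to 1.26 CPM). Their part in the results was not tested.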

How the data were processed

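RNA was extracted with the RNeasy Plus Micro kit and made into libraries with SMART-seq v4 and ThruPLEX kits, per the labels' protocols. The authors used bcl2fastq and STAR with the build mm10, per the submitters' processing notes. Neither versions nor the counting tool and annotation are known from these notes: each is not given in the sources used here. The authors deposited unscaled counts of reads for each gene symbol, marked as unstranded, so reads of overlapping antisense genes cannot be told apart. Coordinates and exon lengths come from GENCODE M21 (GRCm38), which matched all 38 members, and promoter windows from RefSeq (GRCm38.p6), which matched 31. The other 7 are Wfdc21, Serpinb1a, Cebpe, Hp, Tyrobp, Csf1r and Mmp9.

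Counts were filtered with filterByExpr, leaving 15066 genes, scaled by TMM and fitted with the quasi-likelihood test of edgeR 4.0.16 (robust) in R 4.3.3 on all 9 libraries with 3 contrasts. The SE is the log2 change divided by the root of F. Depth was 27485111 to 38761363 reads, and intervals and floors cover counting error only, since amplified reads are not independent molecules. No pair of libraries agreed within sampling noise. Simulated counts gave back 59.7%, 83.6% and 95.5% of 1.5-, 2- and 4-fold changes in lung against bone marrow (67, 67 and 66 genes), with 12 false calls among 14697 genes tested. The changed genes were drawn from those with a mean of 1 CPM or more, so these shares do not cover members below it. No library was made to stand apart from its group, as bone marrow replicate 3 does for the members.

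The members, sets, further lists and markers were chosen with earlier results of these data known. Named genes are all 38 members, the 2 most abundant passing genes per direction of each further list (or its most abundant gene where none passed) and the 2 most abundant markers of each list. Others are said to be named after their values were seen. Alternatives were other scalings, filters, DESeq2 1.42.0, limma 3.58.1 voom, 6 libraries alone, a replicate block and each library left out.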

Additional observations from a re-analysis of the deposited data

How the results depend on the processing

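The count of 25 members lower in lung than in bone marrow was 15 without a filter on low counts, 5 with a filter of 1 CPM in 6 libraries (13 members tested), 16 with limma-voom, 6 with the 6 libraries alone and 2 to 29 with 1 library left out. The 2 members higher became 0 with the 6 libraries alone, 1 to 4 with 1 library left out and 4 without bone marrow replicate 3 and lung replicate 1, an alternative chosen after seeing the data. All genes passing in that comparison, 3806, became 2381 with the 6 libraries alone and 2414 to 4760 with 1 library left out. The 36 members higher in bone marrow than in culture were 12 under the 1 CPM filter and 34 to 38 with 1 library left out. The 14 members higher in lung than in culture were 9 under that filter, 30 with DESeq2, 26 with the 6 libraries alone, 28 without the pair of libraries and 9 to 32 with 1 library left out. The 1 member lower was 0 under that filter, which left Ms4a3 untested. The causes of these shifts were not tested, other than the smaller number of members tested. No called change of a member reversed. Of 694 log2 changes of members in lung against bone marrow under alternatives, 21 gained a call, 145 lost it and 528 stayed on their side of the threshold. In 11 of the 694 the sign changed, in 6 genes (Anxa1, Csf3r, Ccr2, Tyrobp, Fcer1g and Ptprc), none of them called in either fit.

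Replicate numbers are shared between groups but are not stated to pair mice, and the main fit did not use them as pairs. Residuals of same-numbered libraries correlated at -0.06 to 0.27 over all groups. Between bone marrow and lung the values were 0.03, 0.27 and 0.09 for replicates 1, 2 and 3. Tissue libraries of unlike number ran from -0.24 to 0.14. Whether the numbers pair mice cannot be told from these values. With a replicate block, 7 members were lower and 2 higher in lung than in bone marrow, 33 were higher in bone marrow than in culture, and 13 were higher and 1 lower in lung than in culture. Upper-quartile scaling moved the split of all genes between lung and bone marrow from 2138 higher and 1668 lower to 1796 and 2088, with 26 members lower and 2 higher. Genes with few reads, such as Ly6g with 6 in lung, are limited by depth.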
